A study of Homo sapiens with 6 samples.

Results

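The integrated stress response and the unfolded protein response were examined as a set of 55 genes in SUM159 cells that overexpressed miR-1287-5p and in control cells. The genes were chosen by name, with earlier results of these arrays known. Of the 55, 33 had a transcript cluster with a matching symbol, out of 14884 genes with a symbol and 53617 transcript clusters in all. A gene with more than 1 transcript cluster was represented by the brightest over all 6 arrays. The other 22 genes are unnamed here and were not analysed, among them NUPR1, which the study lists as lower on these arrays. They were CEBPB, CEBPG, NUPR1, PPP1R15A and CHAC1 of the signalling genes, MTHFD2, ALDH1L2 and the 7 amino acid transporters of the list, the chaperones HSPA5, HSP90B1, DNAJB9, DNAJC3, PDIA4 and PDIA6, and HERPUD1 and EDEM1 of ER-associated degradation.

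Cells that run short of amino acids, or whose endoplasmic reticulum (ER) fills with unfolded protein, phosphorylate the initiation factor eIF2. Most translation then slows, while the transcription factor ATF4 is translated more and switches on genes for amino acid synthesis, amino acid uptake and tRNA charging. In the ER branch, the sensors PERK, IRE1 and ATF6 also raise chaperones, folding enzymes and the machinery that removes misfolded protein. This response is active in many tumor cells, where fast growth loads the ER and drains amino acids.

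SUM159 is an established triple negative breast cancer cell line. The miR-1287-5p overexpressing cells carried a lentivirus for this mature microRNA and the control cells a control virus, described in the series' design as an empty vector. Both viruses also carried GFP, both groups were kept under puromycin selection, and both were grown in medium with insulin, hydrocortisone and serum. RNA of 3 cultures per group was measured with 1 Affymetrix Human Gene ST array each. The sources do not say whether the cultures of a group came from separate transductions or from 1 transduced population, so p-values measure the spread between these cultures, which may in part be technical.

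The overexpressed microRNA comes from the minus strand of chromosome 10, and its sequence is shown because its seed, bases 2 to 8 in capitals, sets which transcripts it can pair with (RefSeq, GRCh38.p14, chr10:98395271-98395292).
hsa-miR-1287-5p: uGCUGGAUcagugguucgaguc
No transcript cluster with the symbol MIR1287 was available, so the overexpression itself was not checked on these arrays.

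Many of the genes examined carry a known DNA element near their start. ATF4 and its partners bind the C/EBP-ATF response element (CARE, searched as TGATGNAA), ATF6 with NF-Y binds the ER stress response element (ERSE, CCAAT and CCACG with any 9 bases between them) and its variant ERSE-II (ATTGG and CCACG with any 1 base between them), and the unfolded protein response element is bound by XBP1 (UPRE, TGACGTGG). Both strands of the window from 250 bases before to 50 after each RefSeq start were searched, and ERSE and ERSE-II share the letters CCACG. Of the 55 genes, 49 had a window, and CARE letters stood in 12 of them, against 4.46% of all 27305 genes and 3.62% of all 35116 windows. ERSE stood in 6 of the 49, all of them ER chaperones, against 0.0916% of all genes and 0.0769% of all windows. ERSE-II stood in 2, against 0.0696% of genes and 0.0541% of windows. UPRE stood in none of the 49, against 0.927% of genes and 0.729% of windows. A match is a description of these letters, not of a bound site. The matches of measured genes are shown to give the letters found near each start. The element is in capitals and the sequence is read along the gene's own strand (GRCh38.p14).
ASNS, CARE, chr7:97872458-97872487, minus strand: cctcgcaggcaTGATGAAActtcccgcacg
AARS1, CARE, chr16:70289675-70289704, minus strand: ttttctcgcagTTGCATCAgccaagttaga
GARS1, CARE, chr7:30594834-30594863, plus strand: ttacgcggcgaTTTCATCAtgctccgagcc
MARS1, CARE, chr12:57488053-57488082, plus strand: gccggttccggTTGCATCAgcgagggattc
TARS1, CARE, chr5:33440956-33440985, plus strand: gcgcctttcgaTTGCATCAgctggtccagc
CALR, ERSE, chr19:12938379-12938408, plus strand: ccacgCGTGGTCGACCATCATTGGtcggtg
CANX, ERSE, chr5:179698773-179698802, plus strand: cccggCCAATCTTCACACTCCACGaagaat
CRELD2, ERSE, chr22:49918549-49918578, plus strand: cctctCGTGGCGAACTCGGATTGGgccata
SDF2L1, ERSE-II, chr22:21642105-21642134, plus strand: cctcggaagCGTGGACCAATcaaaaccctc
The ASNS element is the one written above, and that of CANX too, while the other 7 stand in reverse complement. The first base of the element lay 68 bases before the start in ASNS, at position -187 in AARS1, -33 in GARS1, -4 in MARS1 and 3 in TARS1, so the element of TARS1 lies just inside the transcribed part.

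No measured gene of either branch changed past the adjusted threshold. In limma over all 53617 transcript clusters (two-sided, Benjamini-Hochberg adjustment), 0 of the 33 measured genes had an adjusted p under 0.05, against 2 lower (0.00373%) and 0 higher (0%) transcript clusters on the whole array and 1 lower gene (0.00672%) among those with a symbol. The adjusted p of the 33 genes lay between 0.814 and 0.992 from limma. At an unadjusted p under 0.05, the overexpressing cells had 3 lower genes (9.09%, against 2.44% of all transcript clusters and 2.4% of genes with a symbol) and 0 higher ones (against 2.96% and 2.57%). These were EIF2AK3, which encodes the ER stress sensor PERK, the lipoprotein receptor VLDLR and the serine synthesis enzyme PSAT1. In 6 of the 33 (18.2%, against 4.33% of all transcript clusters and 5.17% of genes with a symbol) the 3 overexpression arrays were all lower than the 3 control arrays, and in 0 all higher (against 6.88% and 6.92%). Of the 33 log2 fold changes 22 were below 0 (66.7%, against 44.5% of all transcript clusters and 48% of genes with a symbol), with a median of −0.046, where the median of all transcript clusters was 0.029 and that of genes with a symbol 0.011. The genes were listed with earlier results of these arrays known, so these shares are descriptions and carry no test. With 3 arrays in each group, the smallest two-sided p that an exact permutation test allows is 0.1, and precision is limited by this number of arrays.

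**Figure D1:**
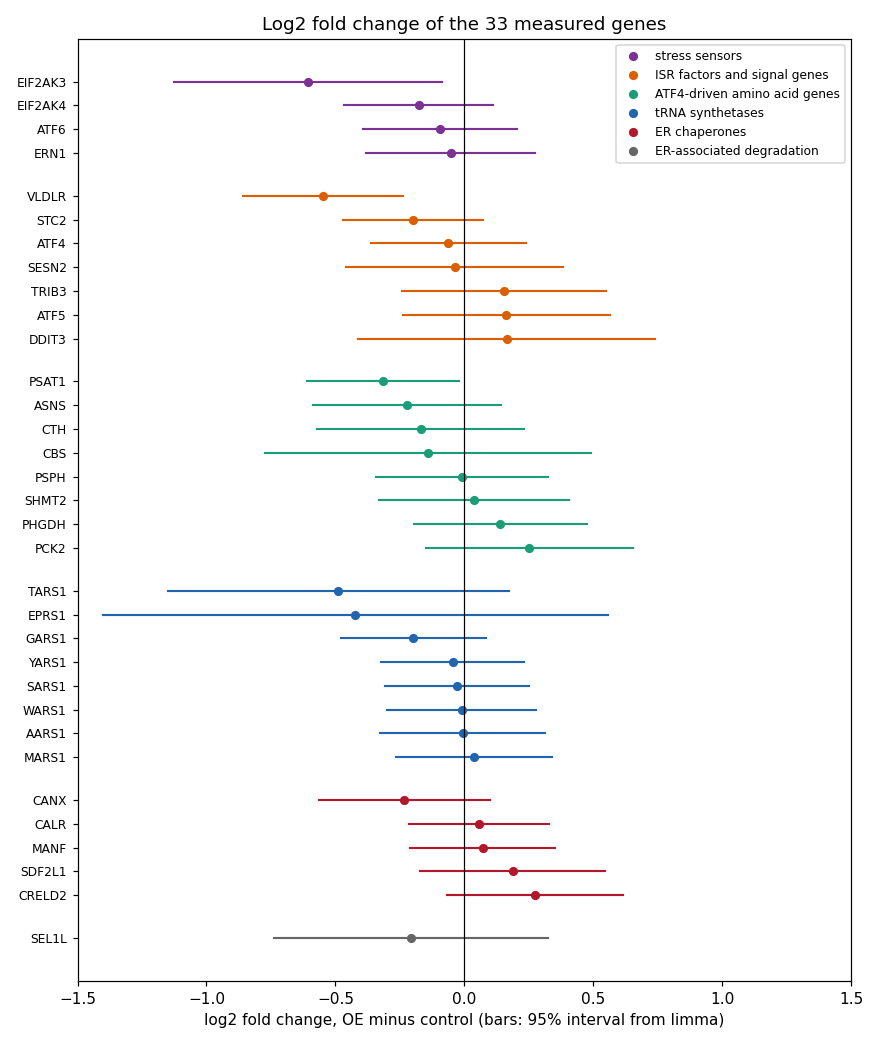
Log2 fold change of the 33 measured genes, miR-1287-5p overexpressing minus control cells, on the horizontal axis, with 1 row per gene, coloured by role, and bars for the 95% interval from limma. The intervals of EIF2AK3, VLDLR and PSAT1 lie wholly below 0 and every other interval includes 0.

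Each group of arrays had its own spread, and it touches most of the values below. Over the 26808 brighter transcript clusters, the first principal component held 55.7% of the variance. On it the overexpression arrays lay at 8.10, −14.6 and −36.0 and the control arrays at −41.5, 60.6 and 23.4, so control replicates 1 and 2 were the farthest apart of all arrays. Vimentin, fibronectin, AXL and CD44, which mark mesenchymal-like breast cancer lines, were bright (mean log2 signal 9.15 to 11.9) and ZEB1 of the same list less so (6.43), and the estrogen and progesterone receptor genes ESR1 (4.22) and PGR (3.63) lay below 4.37, the median of all transcript clusters. EPCAM (4.34) also lay below it, while the luminal genes KRT18 (10.3), GATA3 (6.63) and KRT8 (6.25) did not. The markers of other cell types that had a symbol, CD14, PECAM1 and VWF, were at 3.37 to 4.07.

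The 4 sensors of the response all had log2 fold changes below 0, with a median of −0.14. PERK, encoded by EIF2AK3, is the eIF2 kinase of the ER membrane. EIF2AK3 had a log2 signal of 6.89, 6.61 and 6.55 in overexpression replicates 1 to 3 and of 6.93, 7.73 and 7.21 in control replicates 1 to 3. All overexpression arrays lay below all control arrays, but by little for control replicate 1, while control replicate 2 stood far above the rest. The log2 fold change was −0.61 (standard error 0.22, 95% interval −1.13 to −0.09, 1.52-fold), with an unadjusted p = 0.0275 and an adjusted p = 0.871 from limma. Without control replicate 2 it was −0.39 and its unadjusted p 0.0695 in limma. It also left the unadjusted threshold without overexpression replicate 2 (0.0737) or overexpression replicate 3 (0.0815), and in the methods' t-test (0.0768).

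The remaining sensors moved less. GCN2, encoded by EIF2AK4, is the eIF2 kinase that senses uncharged tRNA. EIF2AK4 had a log2 signal of 8.67, 8.58 and 8.52 in overexpression arrays and of 8.70, 8.84 and 8.76 in control arrays. The groups did not overlap, though by a narrow margin, and the log2 fold change was −0.18 (95% interval −0.47 to 0.11, adjusted p = 0.871 from limma). IRE1, encoded by ERN1, splices the mRNA of XBP1. ERN1 had a log2 signal of 5.66, 5.93 and 5.97 in overexpression arrays and of 5.97, 5.81 and 5.94 in control arrays, which overlap, and a log2 fold change of −0.05 (95% interval −0.38 to 0.27). ATF6, a membrane-bound transcription factor released by cleavage in the Golgi, had a log2 signal of 9.44, 9.34 and 9.23 in overexpression arrays and of 9.35, 9.52 and 9.43 in control arrays. These also overlap, with a log2 fold change of −0.09 (95% interval −0.39 to 0.21).

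**Figure D2:**
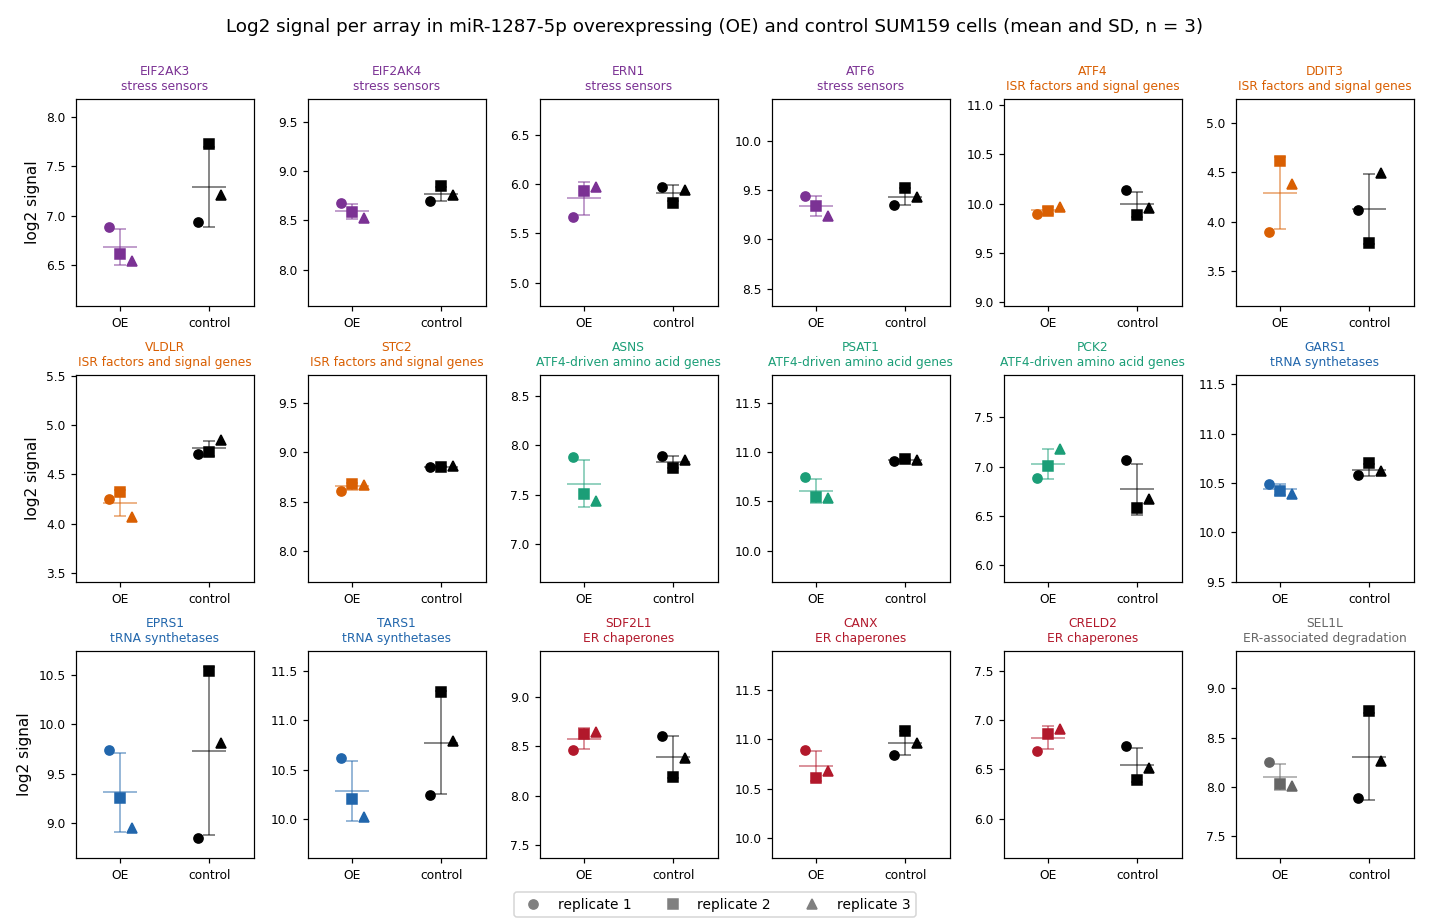
Log2 signal (vertical axis, each panel spanning 2.1 units) of 18 genes in the 3 miR-1287-5p overexpression arrays (OE, coloured) and the 3 control arrays (black), with bars for mean and SD. PSAT1, VLDLR and STC2 show tight control arrays above every overexpression array, while in EPRS1, TARS1, EIF2AK3 and SEL1L control replicate 2 stands far above control replicate 1.

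The transcription factors of the response, their feedback genes and secreted signals went both ways, with 4 of the 7 measured genes below 0 and a median of −0.038 (log2 fold change). ATF4 itself, which is regulated mainly at translation, had a log2 signal of 9.90, 9.93 and 9.97 in overexpression arrays and of 10.14, 9.89 and 9.95 in control arrays. The groups overlapped and the log2 fold change was −0.06 (95% interval −0.36 to 0.24, adjusted p = 0.935 from limma). DDIT3, which encodes the pro-apoptotic factor CHOP, had a log2 signal of 3.89, 4.61 and 4.38 in overexpression arrays and of 4.11, 3.78 and 4.49 in control arrays. Its level was near that array-wide median, where background can limit a fold change, and its arrays were spread by 0.72 in overexpressing cells and 0.71 in control cells around a log2 fold change of 0.16 (95% interval −0.41 to 0.74). ATF5, a factor translated by the same mechanism as ATF4, had a log2 fold change of 0.16, the pseudokinase TRIB3, which restrains ATF4, 0.15, and SESN2, which inhibits mTORC1 when leucine is low, −0.04. All 3 had overlapping groups.

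Only VLDLR and STC2 of this class had groups that did not overlap, lower in every overexpression array, as were 5.17% of genes with a symbol. VLDLR, a receptor for very low density lipoprotein that PERK and ATF4 induce, had a log2 signal of 4.25, 4.32 and 4.07 in overexpression arrays and of 4.71, 4.73 and 4.85 in control arrays. Every overexpression array was lower, with a log2 fold change of −0.55 (standard error 0.13, 95% interval −0.86 to −0.24, 1.46-fold), an unadjusted p = 0.00384 and an adjusted p = 0.814 from limma. Its overexpression mean of 4.22 was under the array-wide median of 4.37, so background can limit the measured change. VLDLR stayed under the unadjusted threshold in all 15 alternative settings, with log2 fold changes between −0.61 and −0.48 and adjusted p between 0.0964 and 0.999 from limma or the methods' t-test. STC2, a secreted stanniocalcin and ATF4 target, had a log2 signal of 8.61, 8.68 and 8.67 in overexpression arrays and of 8.85, 8.85 and 8.86 in control arrays. The control arrays spanned only 0.0093, and the log2 fold change was −0.20 (95% interval −0.47 to 0.07, adjusted p = 0.871 from limma). By the methods' t-test, which takes each gene's own spread, STC2 had an unadjusted p = 0.000787.

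The ATF4-driven amino acid genes did not move together. Of the 8 measured, 5 had a log2 fold change below 0 and 3 above, between −0.32 and 0.25 with a median of −0.075. PSAT1, the aminotransferase of serine synthesis, had a log2 signal of 10.74, 10.54 and 10.53 in overexpression arrays and of 10.91, 10.93 and 10.92 in control arrays. Every overexpression array was lower than the control arrays, which spanned 0.022, and the log2 fold change was −0.32 (standard error 0.13, 95% interval −0.61 to −0.02, 1.24-fold). Its unadjusted p was 0.0387 and its adjusted p 0.871 from limma. The methods' t-test gave an unadjusted p = 0.00996, while in limma the unadjusted p was 0.0630 without control replicate 1, 0.0754 without control replicate 2, 0.0928 without control replicate 3, 0.108 without overexpression replicate 2 and 0.107 without overexpression replicate 3. It was 0.0325 without overexpression replicate 1.

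The other enzymes of serine synthesis did not follow PSAT1. PHGDH, the first enzyme of that pathway, had a log2 fold change of 0.14 (95% interval −0.20 to 0.47), and PSPH, the last, −0.01 (−0.34 to 0.32). SHMT2, which makes glycine from serine in mitochondria, had 0.04 (−0.33 to 0.41). In all 3 genes control replicate 2 was the lowest of the 6 arrays, and in PSPH and SHMT2 control replicate 1 was the highest, so there the overexpression arrays lay between them.
ASNS, the asparagine synthetase and a textbook ATF4 target, had a log2 signal of 7.89, 7.51 and 7.44 in overexpression arrays and of 7.89, 7.77 and 7.85 in control arrays. Overexpression replicates 2 and 3 lay below all control arrays and overexpression replicate 1 did not. The log2 fold change was −0.22 (95% interval −0.59 to 0.14, adjusted p = 0.871 from limma), and without overexpression replicate 1 it was −0.36 (unadjusted p = 0.0460 in limma). PCK2, the mitochondrial PEP carboxykinase, had a log2 signal of 6.88, 7.005 and 7.18 in overexpression arrays and of 7.06, 6.58 and 6.67 in control arrays. Control replicate 1 lay within the overexpression arrays and the other control arrays below them, with a log2 fold change of 0.25 (95% interval −0.15 to 0.65, adjusted p = 0.871 from limma). Without control replicate 1 the log2 fold change was 0.40 at an unadjusted p = 0.0369 in limma.
Of the cysteine synthesis enzymes, CTH had a log2 fold change of −0.17 (95% interval −0.57 to 0.23) and CBS −0.14 (−0.77 to 0.49). CBS was the most uneven gene of this class among overexpression arrays, at 6.19, 6.71 and 7.30, against 6.91, 6.71 and 6.999 in control arrays. Removing overexpression replicate 1 turned the median of the 8 genes to 0.061.

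The tRNA synthetases, which charge tRNAs with their amino acids, differed widely in how much they varied within the groups. All 8 listed were measured, 7 had a log2 fold change below 0, and the median was −0.038. AARS1, SARS1, WARS1, YARS1 and MARS1, the synthetases for alanine, serine, tryptophan, tyrosine and methionine, had log2 fold changes between −0.05 and 0.04, and their 95% intervals all lay between −0.33 and 0.34. WARS1 had a further, dimmer transcript cluster at −0.24, and with the mean of both the median of the 8 was −0.086.
GARS1, the glycine enzyme, had a log2 signal of 10.49, 10.42 and 10.39 in overexpression arrays and of 10.58, 10.70 and 10.62 in control arrays. The groups did not overlap, with a log2 fold change of −0.20 (95% interval −0.48 to 0.08, adjusted p = 0.871 from limma, unadjusted p = 0.014 in the methods' t-test). TARS1, the threonine enzyme, had a log2 signal of 10.62, 10.20 and 10.02 in overexpression arrays and of 10.24, 11.28 and 10.79 in control arrays. Control replicate 1 lay among the overexpression arrays, and the log2 fold change was −0.49 (standard error 0.28, 95% interval −1.15 to 0.17, adjusted p = 0.871 from limma). It was −0.75 without control replicate 1 (unadjusted p = 0.0163 in limma) and −0.23 without control replicate 2.
EPRS1, the fused enzyme for glutamate and proline, varied most. Its log2 signal was 9.73, 9.25 and 8.94 in overexpression arrays and 8.84, 10.54 and 9.81 in control arrays. Control replicate 1 was the lowest of all 6 arrays and control replicate 2 the highest, 1.70 apart, and the log2 fold change was −0.42 (standard error 0.42, 95% interval −1.40 to 0.56, adjusted p = 0.881 from limma). It was −0.87 without control replicate 1 (unadjusted p = 0.0248 in limma) and −0.02 without control replicate 2, so that its size moved in opposite directions with these control arrays.

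Among the ER chaperones and folding factors, 4 of the 5 measured had a log2 fold change above 0, with a median of 0.071 and groups that overlapped in all 5. Overlap is common, since the groups did not overlap in only 12.1% of genes with a symbol. CRELD2, an ER protein that aids disulfide formation, had a log2 signal of 6.69, 6.86 and 6.91 in overexpression arrays and of 6.73, 6.39 and 6.51 in control arrays. Only control replicate 1 reached the overexpression arrays, and the log2 fold change was 0.27 (standard error 0.15, 95% interval −0.07 to 0.61, adjusted p = 0.871 from limma), or 0.37 at an unadjusted p = 0.0418 in limma without that array. SDF2L1, a cofactor of the HSP70 chaperone of the ER, had a log2 signal of 8.46, 8.62 and 8.65 in overexpression arrays and of 8.61, 8.19 and 8.38 in control arrays, with a log2 fold change of 0.19 (95% interval −0.17 to 0.54). Here too control replicate 1 lay among the overexpression arrays.
The 2 lectin chaperones of glycoproteins differed in sign. The membrane-bound CANX had a log2 signal of 10.90, 10.61 and 10.68 in overexpression arrays and of 10.84, 11.08 and 10.96 in control arrays, which overlap through overexpression replicate 1, and a log2 fold change of −0.23 (95% interval −0.56 to 0.10, adjusted p = 0.871 from limma). The soluble CALR had a log2 fold change of 0.06 (95% interval −0.22 to 0.33), and MANF, a secreted factor that keeps the ER HSP70 bound to its clients, had 0.07 (−0.21 to 0.35). The difference between CANX and CALR was not tested.
SEL1L, the scaffold of the ubiquitin ligase that clears misfolded ER protein, had a log2 signal of 8.25, 8.03 and 8.01 in overexpression arrays and of 7.89, 8.77 and 8.26 in control arrays. The control arrays enclose all overexpression arrays, 0.87 apart, around a log2 fold change of −0.21 (95% interval −0.74 to 0.32), which was 0.02 without control replicate 2.

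**Figure D3:**
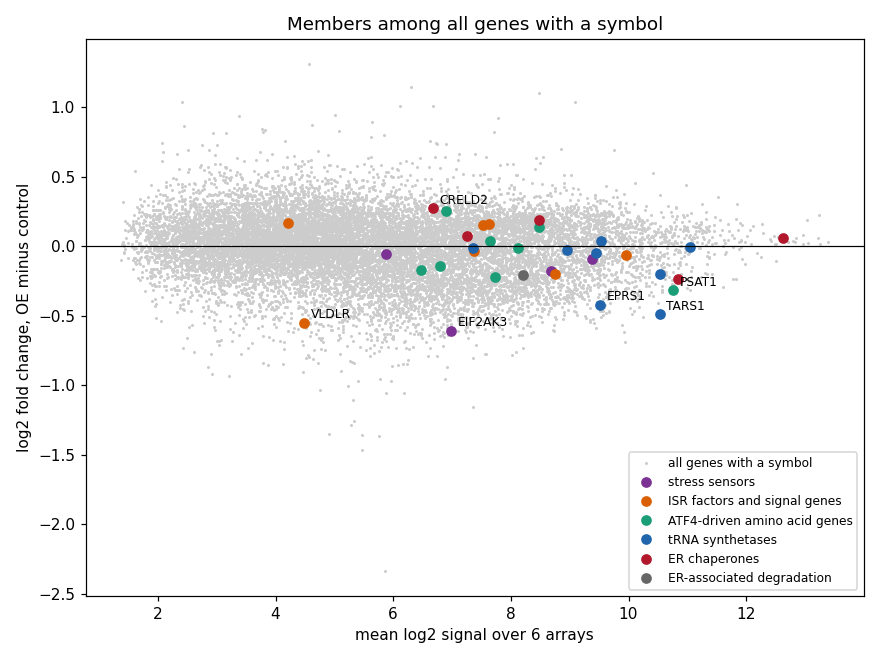
Log2 fold change, miR-1287-5p overexpressing minus control cells, against the mean log2 signal over the 6 arrays for all 14884 genes with a symbol (grey) and the 33 measured genes (coloured by role). The 33 genes lie within the cloud of the other genes, between −0.61 for EIF2AK3 and 0.27 for CRELD2.

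Differences between arrays of the same group were also compared, beside those of the brighter genes with a symbol, a view chosen after the values were seen. In 21 of the 33 genes control replicate 2 lay below control replicate 1 (63.6%, against 56.4% of the 10348 brighter genes with a symbol), among them ATF4 (by −0.25), ATF5 (−0.49), SESN2 (−0.57), TRIB3 (−0.43), PCK2 (−0.49), PHGDH (−0.36), SDF2L1 (−0.42) and CRELD2 (−0.34). In the others control replicate 2 lay above, by 1.70 for EPRS1, 1.04 for TARS1, 0.87 for SEL1L and 0.80 for EIF2AK3. Overexpression replicate 1 minus overexpression replicate 3 had the same sign as control replicate 2 minus control replicate 1 in 30 of the 33 genes (90.9%), against 75.5% of the brighter genes. Across the 33 genes Pearson's r between these differences was 0.72, against 0.71 across the brighter genes, and genes are not independent replicates and share the arrays. In 27 of the 33 genes the range of the control arrays was larger than the difference between the groups (81.8%, against 86.2% of the brighter genes). The part of this spread in the differences between the groups was not tested, beyond the values with 1 array left out.

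**Figure D4:**
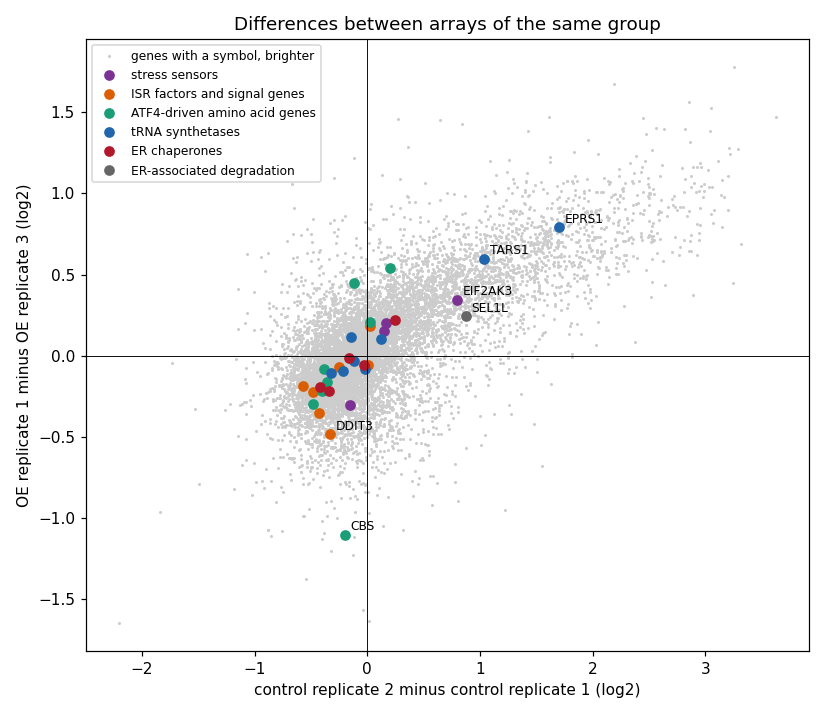
Difference between control replicates 2 and 1 (horizontal axis, log2) and between miR-1287-5p overexpression (OE) replicates 1 and 3 (vertical axis, log2) for the 10348 brighter genes with a symbol (grey) and the 33 measured genes (coloured by role). The 33 genes follow the diagonal of the other genes, with EPRS1 and TARS1 at the upper right and most ATF4 targets at the lower left.

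Other genes of these pathways, from lists made by name, were set beside the 33. Of 11 further cytosolic tRNA synthetase and scaffold genes measured, 7 had a log2 fold change below 0, and the list's median was −0.26. In 10 of the 11 the range of the control arrays was larger than the difference between the groups. VARS1 of this list was higher in every overexpression array, with a log2 fold change of 0.22. TARS3, the paralog of TARS1, had a log2 signal of 5.37, 5.32 and 5.17 in overexpression arrays and of 6.06, 5.95 and 6.15 in control arrays, all overexpression arrays lower, and a log2 fold change of −0.77 (standard error 0.13, unadjusted p = 0.000528, adjusted p = 0.642 from limma). The study lists this gene, under an older name, as lower on these same arrays, so its direction is not independent evidence. IARS1, the isoleucine enzyme, had a log2 fold change of −0.26. Of 9 further enzymes of serine, glycine and folate metabolism 1 was lower at an unadjusted p under 0.05 (11.1%, against 2.4% of genes with a symbol) and 0 higher (against 2.57%). This was GCSH, a subunit of the glycine cleavage system, with a log2 signal of 4.69, 4.41 and 4.32 in overexpression arrays and of 4.88, 5.45 and 5.33 in control arrays. All overexpression arrays were lower, with a log2 fold change of −0.75 (unadjusted p = 0.00541, adjusted p = 0.817 from limma), and the study lists GCSH as lower too. DLD, another subunit of that system, had −0.53 with overlapping groups, and the median of the 9 was −0.0064.
Of 12 further ATF4 and CHOP targets, 8 lay below 0, none passed the unadjusted threshold, and the median was −0.066. ATG12, an autophagy gene, had −0.60 and the ER oxidase ERO1A −0.36, both with overlapping groups. Of 5 eIF2 kinases and regulators, the interferon-induced eIF2 kinase gene EIF2AK2 had −0.46 and GCN1, the partner of GCN2, 0.15, also overlapping, with a list median of −0.060.
In the ER, 1 of 8 further folding enzymes was lower at an unadjusted p under 0.05 (12.5%, against 2.4% of genes with a symbol), and the median was −0.013. This was UGGT1, the glycoprotein folding sensor, with a log2 fold change of −0.35 (unadjusted p = 0.0444, adjusted p = 0.871 from limma). HYOU1, a large ER chaperone, was higher in every overexpression array, at 10.94, 11.00 and 10.88, against 10.71, 10.61 and 10.66 in control arrays, with a log2 fold change of 0.28 (unadjusted p = 0.0526, adjusted p = 0.871 from limma). PPIB was also higher in every overexpression array (0.098), and UGGT1 was lower in every one. Of 11 genes of the translocon, signal peptidase and N-glycosylation 9 lay below 0 with a median of −0.035, and SEC63 (−0.50) and SPCS3 (−0.29) had the smallest p, with overlapping groups. Of 7 further ER-associated degradation genes DERL2 had −0.27 and DERL1 −0.12, both lower in every overexpression array. SELENOS had 0.21, higher in every one, and the median was −0.096. Among genes with a symbol, 5.17% were lower and 6.92% higher in every overexpression array. Of 4 further transcription factor genes of the unfolded protein response CREB3 had 0.25 and CREB3L2 −0.13, with a median of 0.074. The 17 mitochondrial tRNA synthetases of the planned list are unnamed here and were not analysed.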

How the data were processed

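The authors deposited log2 values that they had computed in Partek Genomics Suite 6.6 by RMA, which corrects background, quantile normalizes over all arrays and summarizes probes by median polish. A filtering step is named but not described. This normalization puts all arrays on 1 distribution, so a shift shared by most genes would not show. Symbols came from the platform table (16098 of 53617 transcript clusters, 37519 unnamed here). Groups were taken from the sample titles. Each transcript cluster was compared with limma 3.58.1 in R 4.3.3 (lmFit, eBayes, two-sided, Benjamini-Hochberg over all transcript clusters, threshold 0.05) on the deposited values as they were, with no covariate. The 95% intervals are limma's.

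The genes, roles, other lists and tests were chosen with earlier results of these data known. Array values were given for genes with an unadjusted p under 0.05, the 3 largest fold changes of each role, and ATF4, DDIT3, EIF2AK3, ERN1 and ATF6 (the rule also held HSPA5 and NUPR1, unnamed here). Of other lists the 2 genes with the smallest p were named. Values beyond this rule, as for CBS and the patterns within groups, were chosen after the values were seen.

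Tested on simulated data for this comparison, limma called 0 of 50 transcript clusters changed by 0.585, 20 of 50 by 1, 29 of 50 by 1.5 and 46 of 50 by 2.3 (log2) at an adjusted p under 0.05, among 53617. At an unadjusted p under 0.05 it found 40 of 50 changed by 0.585. At the adjusted threshold it also called 2 unchanged transcript clusters. The simulated noise was drawn independently for each transcript cluster, while the real arrays share a spread across genes. Alternatives were replicate number as a block, the methods' t-test (Student's, unpaired), limma with a trend on intensity, array weights, centred medians, cyclic loess, transcript clusters with a symbol only, a filter on dim ones, the mean of all transcript clusters of a symbol, and each array left out. Motifs were searched in Python 3.11.15.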

Additional observations from a re-analysis of the deposited data

How the results depend on the processing

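None of the 18 genes given by array passed an adjusted p under 0.05 in any of the 15 alternative settings (14 for DDIT3, which the filter on dim transcript clusters leaves out), and none of EIF2AK3, VLDLR and PSAT1 changed sign. The 3 genes lower at an unadjusted p under 0.05 became 5 by the methods' t-test (EIF2AK4, VLDLR, STC2, PSAT1 and GARS1) and between 1 and 4 with one array left out, where VLDLR was the only gene called each time. It was alone without overexpression replicate 2, without overexpression replicate 3 and without control replicate 2. Genes higher at that threshold numbered 0, but 3 with array weights (ATF5, PCK2 and CRELD2) and between 0 and 2 with one array left out (PCK2 and CRELD2 without control replicate 1). With array weights, control replicate 3 had a weight of 7.91 and the other arrays between 0.366 and 1.02. The 2 transcript clusters past the adjusted threshold on the whole array were 0 by the methods' t-test, 0 with the replicate number as a block, 1 after cyclic loess, 5 with dim transcript clusters left out, 25 with array weights and 0 to 0 with one array left out.

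The median log2 fold change of tRNA synthetases was −0.085 with array weights and −0.086 with the mean of all transcript clusters of a symbol, against −0.038. With one array left out it was between −0.069 and −0.014. The median of the amino acid genes then lay between −0.11 and 0.061 (highest without overexpression replicate 1), that of the transcription factors, feedback and signal genes between −0.11 and 0.14 (highest without control replicate 1), that of sensors between −0.18 and −0.12, that of ER chaperones between 0.039 and 0.11, and SEL1L between −0.42 and 0.021 (highest without control replicate 2). The cause of these shifts was not tested. Arrays of the same number did not deviate together (r = −0.47, −0.0018 and −0.081 over 26808 transcript clusters). The sample titles do not say whether the numbers pair the samples. These correlations cannot settle it, since overexpression replicate 1 and control replicate 2, of different numbers, did deviate together (r = 0.47). With the replicate block EIF2AK3 (unadjusted p = 0.0484 in limma) and VLDLR (0.0170) stayed under the unadjusted threshold and PSAT1 (0.0872) did not. Each replicate number occurs once in each group, so the block cannot change a fold change or a list's median, only the standard errors and p. Precision is limited by the 3 arrays of each group, and for DDIT3 and VLDLR by a signal close to the median of all transcript clusters.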

Other observations

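Further stress programs were measured by name lists too. Of 5 NRF2 targets, which defend against oxidants, 2 were lower at an unadjusted p under 0.05 (40.0%, against 2.4% of genes with a symbol) and 0 higher (against 2.57%), with a median log2 fold change of −0.17. HMOX1, the heme oxygenase, had a log2 signal of 8.90, 9.03 and 9.13 in miR-1287-5p overexpression arrays and of 9.56, 9.19 and 9.42 in control arrays, lower in all 3, with a log2 fold change of −0.37 (unadjusted p = 0.0410, adjusted p = 0.871 from limma). TXNRD1, the thioredoxin reductase, had 9.14, 8.97 and 8.97 in overexpression arrays and 9.19, 9.61 and 9.40 in control arrays, lower in all 3, with a log2 fold change of −0.37 (unadjusted p = 0.0413, adjusted p = 0.871 from limma). Control replicate 1 was the highest control array for HMOX1 and the lowest for TXNRD1.

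Of 7 cytosolic heat shock genes 6 lay below 0, with a median of −0.22, and 0 passed the unadjusted threshold in either direction. In all 7 the range of the control arrays was larger than the difference between the groups. The chaperone genes HSPH1 (−0.62) and HSPA4 (−0.46) had overlapping groups. HSPA1A and HSPA1B (−0.19 and −0.22) are near-identical copies that the array may not tell apart. The 3 measured genes of the mitochondrial unfolded protein response lay below 0, with a median of −0.35. In 2 of the 3 the range of the control arrays was larger than the difference between the groups. The median of these ranges over the 3 genes was 0.71. Among these genes were HSPD1 (−0.37) and HSPA9 (−0.24), and only HSPA9 of these 2 was lower in every overexpression array. The adjusted p of all genes in these 3 lists lay between 0.871 and 0.986 from limma.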
